A study of Mus musculus with 10 samples.

Results

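The regions described here carried a peak of H3K27me3 in the R1000 line, the R4000 line or both, and had no peak in the parental line, R100 or R500. The peak lists of the 5 lines were merged where intervals overlapped, which gave 47264 union regions, and 5103 of them (10.8%) had this pattern. Of these, 3124 were found in R1000 alone, 1913 in R4000 alone and 66 in both lines. The regions were thus selected on the presence of peaks in these same lists. The counts of regions in each line are a description and carry no test.

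The parental cells came from a B-cell lymphoma of an Eμ-Myc Cdkn2a-/- mouse on the C57BL/6J background, in which an immunoglobulin enhancer drives Myc in B-lineage cells. R100, R500, R1000 and R4000 are sub-clones taken from it as mafosfamide, an alkylating drug active in culture, was raised through 100, 500, 1000 and 4000 nM over 34 days. All 5 lines therefore share the Myc transgene and the loss of Cdkn2a, and each resistant line is the outcome of a single course of escalation. Per the study, the chromatin came from cells growing without the drug, so the doses name the lines and not the condition at harvest. H3K27me3 ChIP-seq gave 1 peak list per line, which holds positions only, without peak heights or read numbers. Depth is therefore unknown, and a missing peak means only that none was called. Since each line has 1 list, replicate error could not be estimated and the lines were not tested against each other.

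H3K27me3 is trimethylation of lysine 27 of histone H3, placed by the enzyme complex PRC2, whose catalytic subunit is Ezh1 or Ezh2. It is bound by some forms of a partner complex, PRC1, and marks silent genes. In mammals it is broadest over CpG islands at the promoters of developmental regulators such as the Hox genes, and it is removed by the demethylases Kdm6a and Kdm6b. In germinal centre B cells PRC2 holds cell-cycle inhibitors and later differentiation genes silent.

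Regions among the widest found in both R1000 and R4000 are printed first, because they are the most extended cases and show what such a region looks like in sequence. Each was read from the plus strand of the mouse build NCBIM37 (mm9), up to 300 bases from the centre of the region, with CG dinucleotides in capitals.

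Notch2, chr3:97817951-97818250: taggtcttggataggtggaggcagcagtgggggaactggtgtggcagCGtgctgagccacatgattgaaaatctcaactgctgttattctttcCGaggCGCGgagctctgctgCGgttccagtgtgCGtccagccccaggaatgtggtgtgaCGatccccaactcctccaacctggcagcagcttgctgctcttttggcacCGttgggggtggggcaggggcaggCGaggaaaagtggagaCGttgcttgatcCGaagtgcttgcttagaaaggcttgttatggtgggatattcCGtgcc
1700019D03Rik, chr1:53017101-53017400: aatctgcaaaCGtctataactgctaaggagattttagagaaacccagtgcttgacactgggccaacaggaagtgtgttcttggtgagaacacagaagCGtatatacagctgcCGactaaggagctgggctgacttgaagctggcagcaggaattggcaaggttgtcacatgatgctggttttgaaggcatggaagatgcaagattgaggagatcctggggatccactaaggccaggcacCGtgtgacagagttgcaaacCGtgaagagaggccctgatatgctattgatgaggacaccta
Xcl1, chr1:166800601-166800850: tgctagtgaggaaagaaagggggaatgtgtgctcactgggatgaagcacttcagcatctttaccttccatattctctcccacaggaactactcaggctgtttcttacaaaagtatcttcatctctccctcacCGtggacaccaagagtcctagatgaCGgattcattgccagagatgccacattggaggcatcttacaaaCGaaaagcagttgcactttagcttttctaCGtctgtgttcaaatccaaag
Gm10719, chr9:3018201-3018450: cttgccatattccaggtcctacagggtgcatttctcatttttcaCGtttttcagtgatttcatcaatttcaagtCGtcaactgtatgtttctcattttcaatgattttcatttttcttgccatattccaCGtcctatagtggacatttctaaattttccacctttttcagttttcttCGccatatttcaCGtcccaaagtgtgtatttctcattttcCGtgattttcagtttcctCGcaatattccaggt
Rnf2, chr1:153348251-153348450: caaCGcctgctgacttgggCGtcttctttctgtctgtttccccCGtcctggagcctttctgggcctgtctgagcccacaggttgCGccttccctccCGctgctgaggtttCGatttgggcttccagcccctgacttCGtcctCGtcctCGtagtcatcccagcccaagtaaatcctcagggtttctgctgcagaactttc

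GC-rich and GC-poor sequences stand beside each other in this group. The stretches at Notch2 and Rnf2 had 57% and 58% GC and held 12 and 9 CG dinucleotides, while that near Xcl1 had 45.2% GC and held 4. Observed over expected CpG, the number of CG dinucleotides relative to that expected from the C and G content, was 0.517 at Notch2 and 0.559 at Rnf2. It was 0.292 at 1700019D03Rik, 0.315 near Xcl1 and 0.927 at Gm10719, whose stretch had 36.4% GC. In the 500 bp around the region it was 0.655 at Notch2 and 0.696 at Rnf2, and both windows were CpG-rich as defined below. Gm10719 lies at the start of the sequenced part of chromosome 9, and 3 of the 5 bins of 50 bp in its region recur elsewhere in the genome. In the shared region at Rpl30, described next to Rnf2, 1 of 5 bins recurs. Reads from a recurring bin cannot be placed with certainty.

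The Notch2 region (chromosome 3, 97817901 to 97818300) was the widest of those found in both lines. It lies in an intron with its centre 639 bp downstream of the transcription start site (TSS) of Notch2, a receptor needed for marginal zone B cells. R4000 covered all 400 bp and R1000 covered 50 bp. R100, R500 and R1000 also had narrow peaks closer to the TSS, and 100 bp separated the region from the nearest peak of R100 or R500. The parental line had no peak within 2 kb of this TSS.

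Rnf2 encodes Ring1B, the subunit of PRC1 that ubiquitinates histone H2A. Its region (chromosome 1, 153348251 to 153348450) has its centre 397 bp upstream of the TSS, outside exons, and was covered over 200 bp in R4000 and 50 bp in R1000. The R100 and R500 peaks at Rnf2 lay downstream of the TSS, 500 bp or more from this region. The Rpl30 region, in a gene for a protein of the large ribosomal subunit, spanned 250 bp in R1000, and R4000 covered 100 bp of it. Its centre falls in a coding exon 969 bp downstream of the TSS, and a peak of R100 lay 300 bp away.

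The region in an intron of 1700019D03Rik (chromosome 1, 53017101 to 53017400) spanned 300 bp in R1000, of which R4000 covered 100 bp. The region nearest to Xcl1, a chemokine gene of lymphocytes, lies between genes at 64808 bp from that TSS (chromosome 1, 166800601 to 166800850). R1000 covered 200 bp of it and R4000 150 bp, and no peak of the other 3 lines lay within 217050 bp. At Gm10719 (chromosome 9, 3018201 to 3018450) R4000 covered 200 bp and R1000 covered 100 bp.

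**Figure D1:**
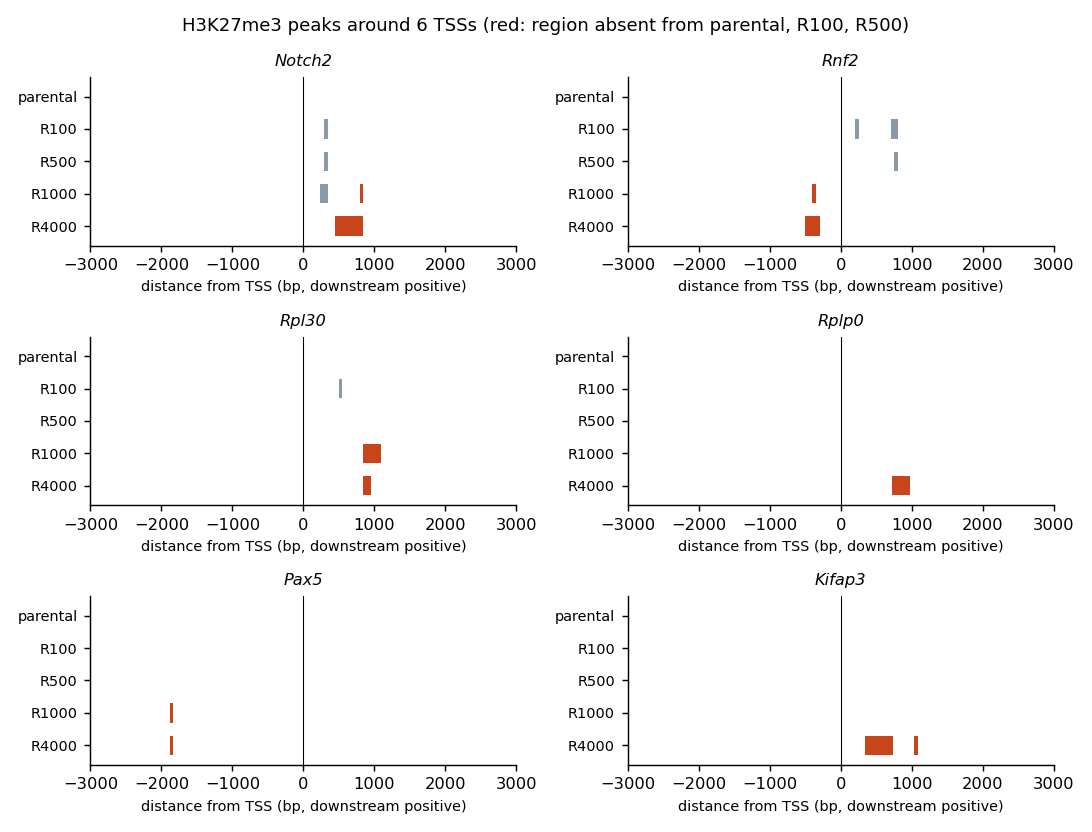
Peaks of the 5 lines within 3 kb of the TSS of 6 genes, with the distance from the TSS in bp on the x axis and 1 row per line. Red bars are peaks in regions absent from the parental line, R100 and R500, and grey bars are other peaks. At Notch2, Rnf2 and Rpl30 peaks of R100 lie beside the red bars, while Rplp0, Pax5 and Kifap3 have no peak of the other 3 lines in view. Rplp0, Pax5 and Kifap3 were chosen for display after their values had been seen.

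Only 10 of the 66 regions shared by R1000 and R4000 had no peak of the other 3 lines within 1 kb. The 10 lie near or within Xcl1, BC031781, Gopc, Trmt61a, Gm807, Atl2, Chi3l1, Zfp286, Rnaseh2c and Pax5, and 6 of them are within 2 kb of a TSS. Of these, Pax5, Atl2 and Trmt61a are described as chosen afterwards, that is, after their values had been seen. Pax5 encodes the transcription factor that sets B-cell identity. Its region (chromosome 4, 44726151 to 44726200) has its centre 1857 bp upstream of the annotated TSS and is 50 bp wide in both lines, which is a single bin of the peak caller. The nearest peak of the other 3 lines was 33100 bp away. The region is GC-balanced (50%) with 3 CG dinucleotides, and it is printed because R1000 and R4000 share it exactly at a B-cell gene. The 500 bp around it had 56.2% GC and an observed over expected CpG of 0.813, a CpG-rich window as defined below.

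Pax5, chr4:44726151-44726200: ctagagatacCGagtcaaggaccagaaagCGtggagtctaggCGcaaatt

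Atl2 is a gene for a membrane fusion protein of the endoplasmic reticulum. Its region (chromosome 17, 80296051 to 80296200) has its centre 662 bp upstream of the TSS and was 93500 bp from any peak of the other 3 lines. R1000 and R4000 each covered 100 bp of its 150 bp. The region at Trmt61a (chromosome 12, 112916501 to 112916650), which encodes a subunit of a tRNA methyltransferase, was covered over 150 bp in both lines. It lies in the UTR of the gene, 5100 bp from the nearest other peak. Among all 66 shared regions the bases covered in both lines had a median of 50 bp. The peak was wider in R1000 at 21 regions, wider in R4000 at 14 and equal at 31.

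The regions were narrow. Together they covered 0.376 Mb of 8.20 Mb of union regions, 3221 of them (63.1%) were 50 bp wide, and the widest measured 450 bp. Only 110 (2.16%) reached 200 bp, against 22.2% of all union regions and 99.9% of the 1678 regions found in all 5 lines. Regions shared by R1000 and R4000 were wider than those of either line alone. Their median width was 100 bp against 50 bp, and 21.2% (95% Wilson interval 13.1 to 32.5%) reached 200 bp. A region with peaks of both lines spans both peaks, so part of this greater width follows from the merging.

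**Figure D2:**
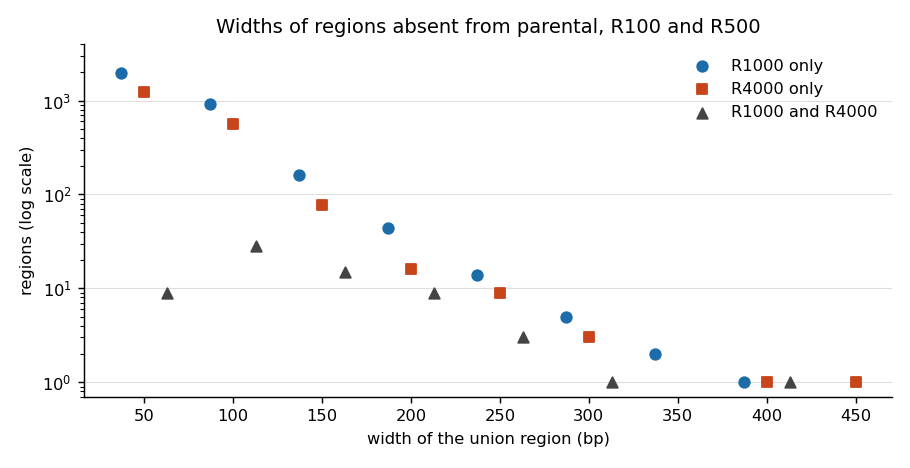
Number of regions (y axis, log scale) by width in bp (x axis) for regions of R1000 alone, R4000 alone and both lines. Counts fall from 1974 and 1238 at 50 bp to 1 each at the widest, and shared regions are most often 100 bp wide, with 28 regions.

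Of the 5 widest regions of R1000 alone, 4 lay over 5 kb from a TSS, and all 5 lay beside peaks of other lines. A region of 400 bp (chromosome 12, 81852001 to 81852400) was nearest to the lincRNA gene Gm17242, 6993 bp from its TSS. A region of 350 bp (chromosome 2, 152551751 to 152552100) was 9887 bp from the TSS of Id1, an inhibitor of the E proteins that direct B-cell development. Another of 350 bp (chromosome 6, 68428451 to 68428800) lay among the immunoglobulin kappa variable genes, 40206 bp from Igkv14-100. A region of 300 bp (chromosome 1, 132914701 to 132915000) was 1422 bp upstream of the TSS of Il10, an anti-inflammatory cytokine gene. Another of 300 bp (chromosome 1, 136578001 to 136578300) was 27577 bp from the TSS of Syt2, a synaptotagmin gene. All 5 were touching or 50 bp from a peak of the parental line, R100 or R500.

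Among the widest regions of R4000 alone, Kifap3 differed from the others in its surroundings. Kifap3 encodes the accessory subunit of kinesin-2. Its region of 400 bp (chromosome 1, 165710051 to 165710450) lies in an intron with its centre 536 bp downstream of the TSS, and the nearest peak of the parental line, R100 or R500 was 149800 bp away. R1000 had no peak within 3 kb of this TSS. The widest region of all, 450 bp in an intron of Gm5607 (chromosome 8, 12406651 to 12407100), was 50 bp from a peak of another line. Regions of 300 bp lay 11187 bp from Fcrla, a B-cell Fc receptor-like gene, 21170 bp from Tmem72 and 124750 bp from Rbbp6, which encodes a ubiquitin ligase. Their distances to the nearest other peak were 200, 500 and 39750 bp. Among regions over 5 kb from any TSS, the 3 widest were those at Gm5607, Gm17242 and Id1 already described.

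Peaks of R1000 and R4000 that lay in these regions made up 33.2% of the R1000 list (3190 of 9595 peaks, 95% Wilson interval 32.3 to 34.2%). In R4000 the share was 29.0% (1979 of 6820 peaks, 28 to 30.1%). By covered length the shares were 14.7% and 13.4%. Among peaks of 50 bp, 61.3% of R1000 and 52.7% of R4000 peaks lay in such regions, while none of the 625 R1000 peaks and 353 R4000 peaks of 500 bp or more did. These intervals cover the counting of peaks within a list only, and peaks of a list are not replicates of a line.

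Each of the 5 lists held peaks that no other list had, and the shares in R1000 and R4000 were the lowest. They were 32.6% and 28%, against 59.4% in R100, 52.9% in R500 and 46.1% in the parental line. With each list cut to its 6820 widest peaks, the shares were 29.7% in R1000 and 35.7% in R4000, against 39.7, 28.2 and 25.4% in the parental line, R100 and R500. The order of the lines was thus not the same in the cut lists, which differ from the full ones in both number and width of peaks.

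R1000 and R4000 seldom marked the same place where the other 3 lines had no peak. Of the regions described here, 2.07% of those with an R1000 peak and 3.34% of those with an R4000 peak were shared by both lines. Where all of the parental line, R100 and R500 had a peak, 71.5% of the regions with R1000 and 87.4% of those with R4000 were shared. Where exactly 2 of those lines had a peak the shares were 34.8% and 50.4%, and where only 1 did they were 10.5% and 16.7%. The regions described here had a median width of 50 bp, and those found in all 5 lines 1000 bp. A wide merged region can hold peaks of both lines more easily, and the shares were not compared at equal width. At 33 places a region of R1000 alone touched a region of R4000 alone without sharing a base, as in Rpl4 (chosen afterwards), where peaks of 100 bp adjoined. Within 1 kb, 184 R1000-only regions (5.89%) had an R4000-only region as a neighbour.

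Most of the regions lay close to peaks of the other lines. The median distance to the nearest peak of the parental line, R100 or R500 was 450 bp, 894 regions touched such a peak, and 61.1% had one within 1 kb. Of the R1000-only regions, 47.9% had an R100 peak within 1 kb, 45.6% an R500 peak and 23.6% a parental peak. For R4000-only regions the shares were 49.9, 44.5 and 22.8%. The R100 and R500 lists are the longest, so more neighbours are found in them by number alone. At the edge of the rule, 512 regions were separated from such a peak by a single empty bin of 50 bp. Just outside it, 6190 regions of R1000 or R4000 were left out because another line had a peak in them, and in 316 of these that peak covered only 50 bp.

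A smaller set of 312 regions (6.11%) was over 50 kb from any peak of the other 3 lines. These were nearer to genes than those at moderate distance. Within 2 kb of a TSS lay 43.6% of them (95% Wilson interval 38.2 to 49.1%), against 29.8% (26.9 to 32.8%) of the 910 regions at 5 to 50 kb and 19.2% (16.6 to 22.2%) of the 765 at 1 to 5 kb. Regions touching another line's peak were near a TSS in 53.6%, and the 2222 regions at 50 to 1000 bp in 45.9%. CpG-rich windows were found in 22.8% of the isolated regions, in 14.8% and 4.18% at those intermediate distances, in 15.4% at 50 to 1000 bp and in 24.3% of touching regions. A window of 500 bp was called CpG-rich where GC was at least 50% and observed over expected CpG at least 0.6. The 312 isolated regions comprised 188 of R1000 alone, 122 of R4000 alone and 2 shared, those nearest to Xcl1 and Atl2.

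Near genes, R4000-only regions were the more frequent by share. Of all the regions, 2053 (40.2%, 95% Wilson interval 38.9 to 41.6%) lay within 2 kb of the 5′ end of an annotated gene. The share was 45.6% (43.4 to 47.8%) for R4000 alone, 36.6% (34.9 to 38.3%) for R1000 alone and 57.6% (45.6 to 68.8%) for shared regions. All union regions had 38.4%, and the bases of the genome 5.24%. Regions of R100 alone had 38% and of R500 alone 31.4%. Regions of the parental line alone had 16.5% and those in all 5 lines 69.2%. In CpG-rich windows the difference between R4000 and R1000 was also seen, with 21.3% (19.5 to 23.2%) against 11.9% (10.8 to 13.1%). R100 alone had 20.4% and R500 alone 12.7%, close to R4000 and R1000. The parental line alone had 1.15%, all union regions 18.4%, tiles of the whole genome 0.723% and windows centred on annotated TSSs 32.3%.

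The difference between R4000 and R1000 was present within each width. At 50 bp, 44.4% of R4000-only regions and 33.6% of R1000-only regions were within 2 kb of a TSS, against 32.0% for R100 alone, 26.8% for R500 alone and 15.3% for the parental line alone. At 100 bp the shares were 46.5% and 41.3%, whose intervals overlap (42.4 to 50.6% and 38.1 to 44.5%), and at 150 bp or more 54.2% and 43.2%, also with overlapping intervals. In CpG-rich windows the intervals of R4000 and R1000 did not overlap at any width. These intervals again cover counting only, and R1000 and R4000 are each known from 1 list.

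**Figure D3:**
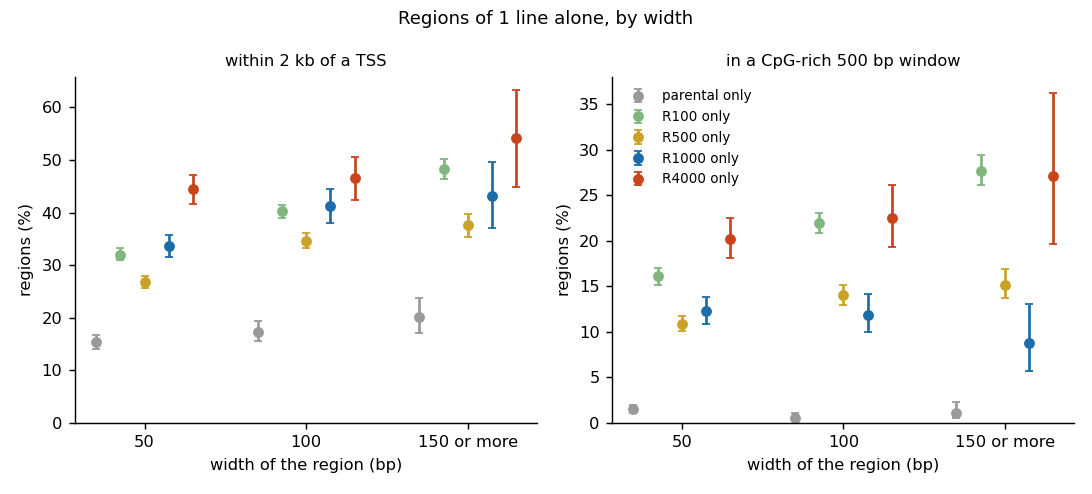
Share of regions (%) within 2 kb of a TSS (left) and in a CpG-rich window of 500 bp (right), by width of the region in bp, for regions found in only 1 of the 5 lines. Points are shares and bars 95% Wilson intervals. R4000-only regions have the highest share near a TSS at each width and parental-only regions the lowest in both panels.

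At the TSS itself few of the regions were found. A TSS lay inside 26 of the 5103 regions (0.510%), against 22.6% of the regions in all 5 lines, which are far wider. Over protein-coding genes, R1000-only regions covered most genes 250 bp downstream of the TSS, where 53 genes were covered, and 11 genes at the TSS. R4000-only regions also covered 53 genes at their highest point, 300 bp downstream, and 5 at the TSS. A second, lower rise lay 300 to 350 bp upstream. Between 300 and 1000 bp from the TSS, downstream positions were covered 1.39 times as often as upstream ones in R4000 and 1.16 times in R1000. The ratio was 2 for R100 alone and 0.761 for the parental line alone.

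**Figure D4:**
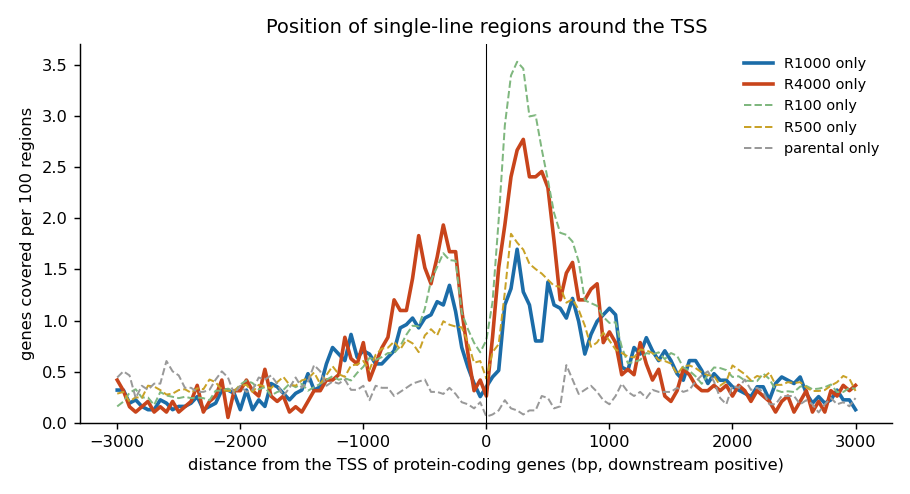
Protein-coding genes covered per 100 regions (y axis) by distance from the TSS in bp (x axis), for regions of each of the 5 lines alone. R1000-only and R4000-only regions (solid) rise on either side of the TSS and dip at it, as R100-only regions do (dashed), and parental-only regions show no rise.

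By annotation, the centres of 47.5% of the regions were between genes, 40% in introns, 4.98% in UTRs, 5.10% in coding exons and 2.41% in exons of non-coding transcripts. All union regions had 45% between genes, 5.53% in UTRs and 6.55% in coding exons, so the regions were slightly less often exonic than these. In the genome 58.8% of bases are between genes, 1.25% in UTRs and 1.40% in coding exons. Of the regions within 500 bp of a TSS, 783 were nearest to a protein-coding gene, 38 to a lincRNA gene and 9 to a miRNA gene. The share of bases made of G and C in the 500 bp around a region had a median of 47.6%, with 47.2% in R1000 alone, 48.4% in R4000 alone, 44.2% in the parental line alone and 55.6% in regions of all 5 lines.

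Because Myc, which the Eμ enhancer drives in these cells, and the E proteins of B cells bind E-boxes, the letters of 3 such motifs were counted in the 500 bp around each region, on both strands. CACGTG, which Myc and Max bind, was found in 8.01% of the regions, 8.30% of all union regions and 8.60% of windows at annotated TSSs. CAGCTG was found in 22.6% of the regions (21.5 to 23.8%), below the 26.3% of all union regions and 24.9% of TSS windows. CAGGTG was found in 32.7%, against 35.4 and 33.6%. The motifs share CA and TG at their ends and differ in the middle, so no site counts for more than 1 of them, and a match is not a binding site. R1000-only and R4000-only regions did not differ beyond their intervals in any of the 3.

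Within 2 kb of the TSS, 1869 of 22367 protein-coding genes (8.36%) had at least 1 of the regions. R1000 gave 1104 genes (4.94%) and R4000 926 (4.14%). Both lines were found at 161 genes, which is 14.6% of those with R1000 and 17.4% of those with R4000, but only 40 genes had a region in which peaks of both lines fell. At 1406 of the 1869 genes (75.2%) the parental line, R100 or R500 had a peak of its own within 2 kb, compared with 32.8% of all protein-coding genes. The other 463 genes (2.07% of all) had none. The rule asked only that a peak of those lines did not overlap the region itself.

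Genes of protein synthesis had the regions more often than protein-coding genes as a whole. Of 85 ribosomal protein genes, 22 (25.9%) had a region within 2 kb of the TSS, 16 of them (18.8%) in R4000 and 10 (11.8%) in R1000. Of 67 genes for translation initiation and elongation factors 15 had one (22.4%), 11 in R4000 and 7 in R1000. Among 76 mitochondrial ribosomal protein genes 12 had one (15.8%), 7 in R1000 and 6 in R4000. These shares stand beside 8.36, 4.94 and 4.14% of all genes and were not tested. Peaks of any kind were also frequent at ribosomal protein genes, at 67 of 85 in R100, 69 in R500, 53 in R1000, 62 in R4000 and 27 in the parental line. At the 67 translation factor genes they lay at 36 in R100, 28 in R500 and 8 in the parental line. At the 76 mitochondrial ribosomal protein genes they lay at 38, 24 and 1. Of all protein-coding genes 28.2% had a peak in R100, 21.4% in R500 and 8.31% in the parental line. In R100 and R500 peaks were thus more frequent at each of these lists than at all genes. A peak of R1000 or R4000 of any kind lay within 2 kb of 3716 protein-coding genes, and 1869 of these had a region. Ribosomal protein genes had an R4000 peak at 62 genes and a region at 22, so their higher share is not particular to these regions. At 18 of the 22 ribosomal protein genes the other 3 lines also had a peak within 2 kb.

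Rplp0, which encodes a protein of the ribosomal stalk, was among the 4 that had none, with Rpl21, Rps23 and Rps4x, which are named as chosen afterwards. Its region (chromosome 5, 116010201 to 116010450) was covered over 250 bp in R4000 and not in R1000, with its centre in an intron 849 bp downstream of the TSS. The nearest peak of the parental line, R100 or R500 was 53200 bp away, and at Rps23 it was 447100 bp away. Rpl5, whose protein binds 5S rRNA and can inhibit Mdm2, also had a region of 250 bp in R4000 alone (chromosome 5, 108330351 to 108330600), with an R100 peak 250 bp from it. Of the 27 regions at ribosomal protein genes, 24 had their centres downstream of the TSS, and 4 held bases that recur elsewhere in the genome.

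Eif3d and Eif3m encode subunits of the initiation factor eIF3, and Eif4b a cofactor of the helicase eIF4A. At Eif3d R1000 had a region of 200 bp with its centre 496 bp upstream of the TSS (chromosome 15, 77801651 to 77801850). Inside the gene R1000 and R4000 had adjoining regions of 100 bp. At Eif4b R1000 covered 200 bp with the centre 1096 bp downstream (chromosome 15, 101905201 to 101905400) and R4000 covered 50 bp at 871 bp. Eif3m had a region of 100 bp in R4000, at 436 bp, with no peak of the other 3 lines within 47300 bp. Mrpl17 had the widest region among mitochondrial ribosomal protein genes, 150 bp in R4000, and Mrpl30 and Mrpl35 had regions of 100 bp.

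The window mattered for these groups. In the 5 kb upstream of the TSS, 1140 of all protein-coding genes (5.10%) had a region, but only 3 of 85 ribosomal protein genes and 3 of 67 translation factor genes did. Of the 76 mitochondrial ribosomal protein genes 6 did. The excess over all genes near the TSS was thus not seen upstream for the ribosomal protein and translation factor lists.

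The Polycomb list held PRC2 and PRC1 subunit genes and H3K27 demethylase genes. Of its 30 genes, 9 had a region (30.0%, 95% Wilson interval 16.7 to 47.9%). R4000 gave 6 and R1000 4, with Rnf2 in both. The share of all protein-coding genes was 8.36%, and the difference was not tested. R100 had peaks of any kind at 12 of the 30 genes, R500 at 11 and the parental line at 7. Among all protein-coding genes these lines had them at 28.2%, 21.4% and 8.31%. A higher share is thus not particular to the regions. Pcgf1, which defines a form of PRC1 recruited to unmethylated CpG islands, had regions of 150 bp and 50 bp in R1000. Their centres were at 954 and 1354 bp upstream of the TSS. Pcgf3, a paralogue in another form of PRC1, had 100 bp in R4000 at 1800 bp upstream. The regions at the other genes were all 50 bp wide. Outside the rule by which genes were named, and chosen after their values had been seen, 4 had no peak of the other 3 lines within 2 kb. Ezh2, the catalytic subunit of PRC2, had a bin in R1000 at 435 bp upstream, 47100 bp from the nearest such peak. Kdm6a had one in R1000 at 1274 bp downstream, 1896350 bp away. Phc3 and Jarid2, a subunit of PRC1 and a cofactor of PRC2, had theirs in R4000.

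Hox genes, classical targets of PRC2, had regions in places where other lines also had peaks. Of 40 Hox genes 10 had one (25%), 7 in R1000 and 3 in R4000, and all 10 also had a peak of the other 3 lines within 2 kb. The share of all protein-coding genes was 8.36%. Peaks of any kind lay at 34 of the 40 Hox genes in R100, 34 in R500 and 26 in the parental line. At Hoxc6 R1000 covered 200 bp with the centre 1112 bp downstream of the TSS. At Hoxd11 it covered 150 bp at 623 bp upstream, and at Hoxa7 R4000 covered 150 bp at 1222 bp upstream. The densest place of all was in the Hoxc cluster. From 102799551 to 102835750 on chromosome 15, over Hoxc10, Hoxc9, Hoxc8 and Hoxc6, 12 of the regions followed each other within 10 kb, 8 in R1000 and 4 in R4000. The other 3 lines had 104 peaks in the same interval. Next came an interval at Egflam with 9 regions (chromosome 15, 7148201 to 7183600) and one at Gm12357 with 8 (chromosome 2, 143914101 to 143947300), which had 95 and 44 peaks of the other lines. An interval at Hoxc13 also held 8. Most regions, 3196 of 5103, had no other within 10 kb.

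Other developmental homeobox genes had regions in 16 of 105 (15.2%), 12 in R1000 and 5 in R4000, beside 8.36% of all protein-coding genes. Peaks of any kind lay at 74 of the 105 in R100 and 73 in R500. Msx3 had 150 bp in R1000 and 100 bp in R4000, and Vsx1 had 2 regions in R1000. Of 43 Forkhead genes 8 had a region (18.6%), and 26 of the 43 had a peak of any kind in R100 and 21 in R500. Foxo6, a forkhead factor of the Foxo group, had a shared region of 200 bp in which R1000 and R4000 each covered 150 bp, with the centre 896 bp upstream of the TSS (chromosome 4, 119960751 to 119960950). Foxj2 and Foxf1a each had 100 bp in R4000. Of 19 Sox genes, Sox12, Sox6 and Sox10 had a region, each in R1000. At Sox10, a neural crest factor, no peak of the other 3 lines lay within 22800 bp. None of 16 T-box genes and none of 6 Gata genes had a region within 2 kb of the TSS, although peaks of R1000 were present at 4 and 2 of them. Of 33 proneural and mesodermal bHLH genes 2 had one. At Lyl1, a blood bHLH factor, R1000 and R4000 shared a bin of 50 bp and R1000 had a further 100 bp, and at Neurog3 R4000 had 50 bp.

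Among signalling genes, 5 of 44 Wnt pathway genes had a region (11.4%, 95% Wilson interval 4.95 to 24%), near the 8.36% of all protein-coding genes. Sfrp2, which encodes a secreted Wnt antagonist, had 250 bp in R1000 with the centre 1132 bp downstream of the TSS (chromosome 3, 83571251 to 83571500), touching another line's peak. The ligand gene Wnt11 had 3 regions, of 150 and 100 bp in R4000 and 100 bp in R1000, and the receptor gene Fzd7 had 100 bp in R1000. Of 43 Fgf, Bmp and Gdf ligands 4 had one (9.30%, also near the background), at Gdf11, Bmp8a, Fgf20 and Gdf9. Potassium channel genes had one at 10 of 95 (10.5%, interval 5.82 to 18.3%), among them Kcns1 and Kcnh3 in R1000 and Kcne3 in R4000, each with 150 bp. Of 36 protocadherin genes only Pcdh9 had one.

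B-cell transcription factors had a region at 6 of 27 genes (22.2%, 95% Wilson interval 10.6 to 40.8%), 5 in R1000 and 2 in R4000. Of all protein-coding genes 8.36% had one, and the difference was not tested. Peaks of any kind were also frequent at these factors, at 15 of 27 in R100 and 16 in R500, against 28.2% and 21.4% of all genes. A higher share is thus not particular to the regions. Pou2af1, the B-cell coactivator of Oct factors, had 150 bp in R1000 with the centre 1230 bp downstream of the TSS (chromosome 9, 51022951 to 51023100). Ikzf3, which encodes Aiolos, had 100 bp in R1000 at 944 bp downstream, with no peak of the other 3 lines within 23100 bp. Bcl11a had 2 regions of 100 bp in R4000. Pax5 was the only one with a shared region. Of 19 B-cell surface and signalling genes, only Cd40 had a region, 50 bp in R4000. Peak lists give no expression, so the B-cell identity of the lines could not be checked by transcript. Of 8 B-cell marker genes, peaks lay within 2 kb of the TSS at 3 of them in R1000 and 2 in R4000, at 3 in R100, at 4 in R500 and at 0 in the parental line. Of 5 T-cell markers, 1 had a peak in R100, 2 in R500 and 0 in the parental line, R1000 and R4000. Of 5 myeloid markers only Lyz2 had a peak, in the parental line.

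In the immunoglobulin kappa locus (chromosome 6, 67505630 to 70676751), 40 of the 255 union regions were of the kind described here, 24 in R1000 and 16 in R4000. The parental line, R100 and R500 had 90, 82 and 91 peaks there, and R1000 and R4000 had 53 and 33. In the heavy chain locus 4 of only 15 union regions were of this kind. The lambda locus had no union region in any line, so none could be found there. Of all union regions 10.8% were of this kind.

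A list of cyclin, cyclin-dependent kinase and Cdc genes had a region at 7 of 62 (11.3%), 5 in R1000 and 3 in R4000. The genes with a region included Cdc26, and also Cdc40 and Cdc14a (chosen afterwards). The share is therefore not that of cyclins and cyclin-dependent kinases alone. Ccnl1 in R1000, and Cdc26, a subunit of the anaphase-promoting complex, in R4000, had regions of 100 bp with no other line's peak within 83400 and 62300 bp. Ccnt2 had 100 bp in R4000. Of 7 Cdk inhibitor genes only Cdkn1a, which encodes p21, had one, 50 bp in R1000 with the centre 1951 bp downstream of the TSS and touching another peak. Of 26 genes of the p53 family and damage response 3 had one (11.5%), namely Plk2 and Perp in R1000 and Sesn2 in R4000. Perp had no peak of the other 3 lines within 170200 bp. Of 22 Bcl2 family genes 3 had one (13.6%, 4.75 to 33.3%), all in R1000. The intervals of the cyclin, p53 and Bcl2 lists all include the 8.36% of all protein-coding genes. Mcl1, an inhibitor of apoptosis, had 150 bp that touched another peak, Bcl2l12 had 100 bp, and the pro-apoptotic gene Bid had 50 bp with no such peak within 79550 bp. Of 12 Myc family genes Mga and Mycn had one, both in R1000.

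Genes that could handle mafosfamide were near the background. Alkylator detoxification and efflux genes had 5 of 59 (8.47%, beside 8.36% of all genes), 5 in R1000 and 1 in R4000. Gsr, glutathione reductase, had adjoining regions of 100 bp in R4000 and 50 bp in R1000, and Aldh1l2 and Mgst3 had regions in R1000. Genes for repair of crosslinks and double-strand breaks had 5 of 50 (10%). Rad52 had 150 bp in R4000 with the centre 109 bp downstream of the TSS, Slx4, a scaffold of the nucleases that unhook crosslinks, had 100 bp in R1000, and Rad50 had 50 bp in R1000. Slx4 had no peak of the other 3 lines within 74150 bp.

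Immediate early and stress genes had a region at 6 of 32 (18.8%), 6 in R1000 and 0 in R4000, although R4000 had peaks of some kind at 12 of them. Of all protein-coding genes 8.36% had a region, 4.94% with R1000 and 4.14% with R4000. Peaks of any kind lay at 27 of the 32 in R100 and 21 in R500, against 28.2% and 21.4% of all genes. A higher share is thus not particular to the regions. Atf5 had 100 bp, and Egr4 and the chaperone gene Hspa8 had 50 bp each. All 6 also had a peak of the other 3 lines within 2 kb. Splicing factor and hnRNP genes showed the opposite split, with 5 genes in R4000 and 1 in R1000 of 49. Hnrnpab and Hnrnpa2b1 each had 2 regions in R4000, and Sf3b3 had 100 bp. No test of the difference between the lines was possible with 1 list each.

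Proteasome subunit genes had 7 of 42 (16.7%), among them Psmd11 with 200 bp in R4000 and Psmb2 and Psmb3 with 100 bp in R1000. Mitochondrial respiratory chain genes had 11 of 98 (11.2%), with Ndufaf3, Ndufa10 and Uqcrb in R1000 the widest. Clustered histone genes had 6 of 67 (8.96%, 4.17 to 18.2%), among them Hist3h2ba, Hist2h4 and Hist1h2bl. The 6 genes rest on 5 regions, because neighbouring genes were counted through the same bins, and the interval does not allow for this. Each of these intervals includes the 8.36% of all protein-coding genes. Uhrf1, which recruits the maintenance methyltransferase, had 100 bp in R1000 and Dnmt3a 50 bp in R4000, 2 of 8 genes of DNA methylation. Zinc finger genes were near the background with 29 of 368 (7.88%), the widest at Zfp207, Zfp451 and Zfp64. Olfactory and vomeronasal receptor genes were far below it, 2 of 1407 (0.142%), at Olfr1366 and Olfr750.

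**Figure D5:**
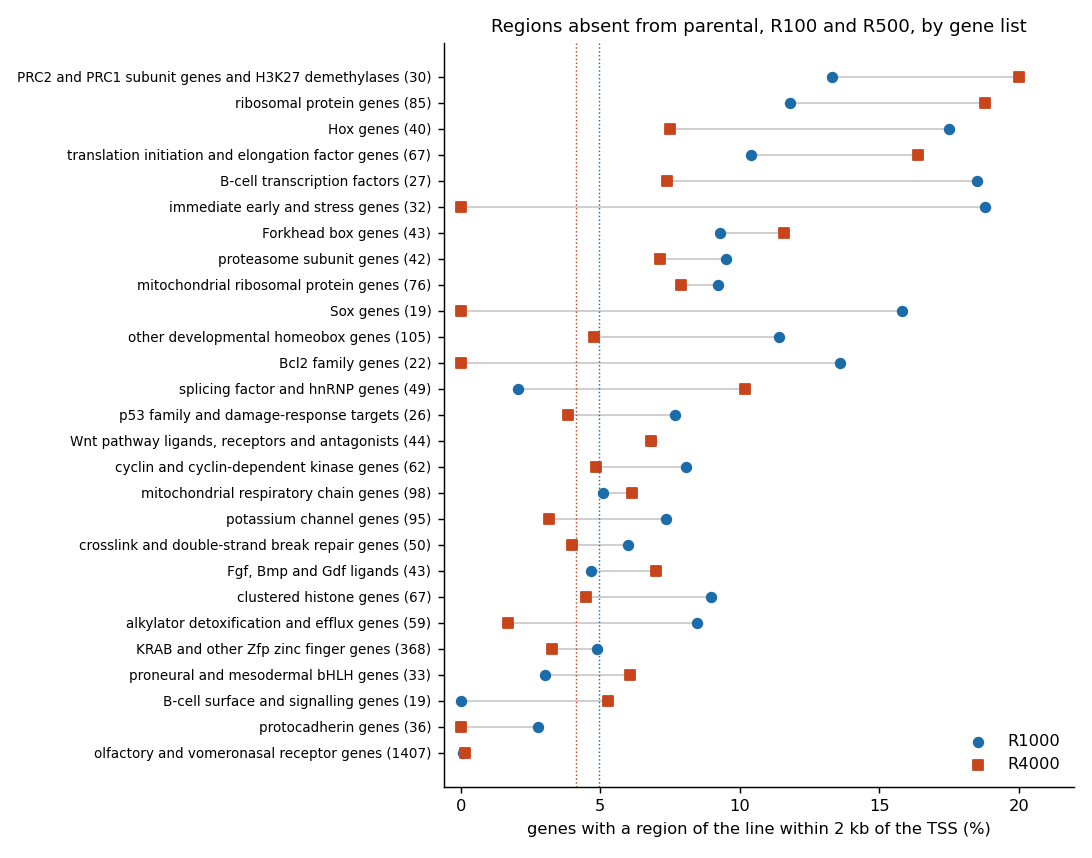
Share of genes (%) with a region of R1000 (circles) or R4000 (squares) within 2 kb of the TSS, for the gene lists with at least 19 genes, whose sizes are in parentheses. Dotted lines mark all protein-coding genes, 4.94% for R1000 and 4.14% for R4000. Ribosomal protein, translation factor and Polycomb genes lie to the right for both lines, immediate early genes at 18.8% for R1000 and 0 for R4000, and olfactory receptor genes at the left.

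Along the chromosomes the regions followed the union regions as a whole. They were 8.50% (chromosome 11) to 13.4% (X) of the union regions of a chromosome, and none of the 3 union regions on Y was among them. By length their density ran from 0.296 per Mb on X to 3.61 per Mb on chromosome 19. Chromosome 1 held 12.4% of R4000-only regions and 8.80% of R1000-only regions.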

How the data were processed

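H3K27me3 ChIP-seq of 5 lines was analysed, and the reduced representation bisulfite libraries were not analysed here. The authors sequenced 50-bp reads and called peaks against input in windows tiling the genome, with Poisson statistics. The submitters' processing notes name Bowtie and mm9. The study used replicates and set a p-value limit for its promoter clusters, but whether the deposited lists pool replicates or use that limit is not given in the sources used here. The other values the authors deposited are the positions of the peaks (chromosome, start, end) on a grid of 50 bp. The lists of R100 and R500 hold each row 2 times, and distinct rows were used.

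Intervals sharing at least 1 base were merged in Python 3.11.15 with numpy 2.4.6. The step was tested on simulated data, and 0 regions differed from bedtools 2.31.1 merge. Positions were read as 1-based and inclusive. A TSS is the 5′ end of a gene of the GENCODE annotation of NCBIM37, 37273 genes in all. The 32 gene lists were defined by symbol. A region within 2 kb of several TSSs was counted for each gene, and a gene or region can be in more than 1 list. The members, the lists and the tests were chosen with earlier results of these data known. Motifs, GC and CpG were counted in 500 bp windows of the reference genome, and a bin was called recurring where its 50 bases occur again in it, on either strand.

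The named regions are the 5 widest shared, the 5 widest of each line alone, the 3 widest over 5 kb from a TSS and the 3 densest intervals. The named genes are those of each list with a region, or the 3 with the widest where more than 4 had one. The sequence of 1 shared region and the values of 1 named gene are not reported here. Genes or regions outside this rule, in the report called chosen afterwards, were picked with their values in view. Alternatives were other joins, widths, list lengths, windows and sets of TSSs.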

Additional observations from a re-analysis of the deposited data

How the results depend on the processing

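The values rest on 1 list per line of unknown depth, so a region absent from a list may carry the mark below the calling threshold, and the lines differ in ways that cannot be told apart from dose. No paired analysis was possible because each line has 1 peak list and no test was made. Leaving out a replicate was not possible for the same reason. Of 60 alternatives to the 6 main values, 16 stayed close to the reported value and 44 did not. What was called close was not the same for counts and shares. With touching intervals joined, 4166 regions against 5103 were called close, but a share near a TSS of 37.0% against 40.2% was not. On autosomes, and without regions that hold recurring bases (an alternative chosen after seeing the data), all 6 stayed close.

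The number of regions fell from 5103 to 2105 with peaks of at least 100 bp, 309 with peaks of at least 200 bp and 1930 with intervals within 1000 bp joined. It fell to 1987 and 1222 where no peak of the other 3 lines was allowed within 1000 or 5000 bp. Touching intervals joined gave 4166. Shared regions numbered 35, 4, 36, 10 and 10 under the same first 5 settings, against 66, and 114 with lists of equal number. The share of regions within 2 kb of a TSS, 40.2% as reported, was 37.0% with touching intervals joined, 27.3% with intervals within 1000 bp joined, 44.7 and 58.9% with peaks of at least 100 and 200 bp, 46.3% with lists of equal number, and 27.9 and 33.3% without another line's peak within 1000 and 5000 bp. It was 36.7% with protein-coding genes only, 45.7% with the 5′ ends of all transcripts, and 17.8 and 54.0% within 500 and 5000 bp. The share in a CpG-rich window, 15.6% as reported, was 13.5% and 11.8% with touching intervals or those within 1000 bp joined, 23% with peaks of at least 200 bp, 20.4% with lists of equal number, 12 and 16.9% without another line's peak within 1000 and 5000 bp, and 13.4 and 17.5% in windows of 200 and 1000 bp.

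The share of R1000 peaks in the regions, 33.2%, became 27.3 and 12.9% with touching intervals or those within 1000 bp joined, 21.3 and 8.38% with peaks of at least 100 and 200 bp, 31.3% with lists of equal number, and 13 and 7.90% without another line's peak within 1000 and 5000 bp. For R4000, 29.0% became 23.6, 10.9, 17.8, 6.52, 37.4, 11 and 6.95% under these settings in the same order. The settings that join intervals, drop narrow peaks or ask for distance leave fewer regions by construction. The filter on width was applied to all lists, so a region could enter once a narrow peak of another line was dropped. Of the shifts with lists of equal number, the cause was not tested. With only the regions shared by R1000 and R4000, genes with a region fell from 22 to 1 for ribosomal protein genes, 15 to 1 for translation factor genes, 10 to 0 for Hox genes and 29 to 0 for zinc finger genes. In the upstream window the counts were 3, 3, 10 and 18.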
